A study of Homo sapiens with 12 samples.

Results

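BAK1, CASP9, TRIAP1, AEN and TNFAIP8 are 5 genes of programmed cell death and of the p53 response, chosen by gene symbol from a table of 1676 genes, and each was found there in 1 row. The table comes from the human neuroblastoma line SH-SY5Y, widely used in place of neurons, whose cells were transfected with constructs for tau, which binds microtubules, and sampled 24 h later. Every culture carried a tau construct, so the reference is not an untransfected cell: it is wild-type tau (Tau-WT), compared with tau in which a glutamate replaced a serine (Tau-S199E), a glutamine replaced a lysine (Tau-K174Q), or both (Tau-K174Q:S199E). Glutamine stands in for an acetylated lysine and glutamate for a phosphorylated serine. Each of the 4 constructs had 3 libraries, 12 together, and the promoter that drove the constructs is not given in the sources used here. Each gene had been standardised by the authors to mean 0 and SD 1 over the 12 libraries, so values and differences below are in SD units of that gene, carry no level or depth, and cannot be compared in size with a fold change.

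In the mitochondrial route of apoptosis, BAK1 forms pores in the outer mitochondrial membrane, cytochrome c leaves through them, and the initiator caspase CASP9 is then activated on the apoptosome built by APAF1. The transcription factor p53 feeds this route and other responses to DNA damage through target genes. TRIAP1 and AEN are such targets with opposed roles: TRIAP1 is a small mitochondrial protein that helps to move phosphatidic acid between the membranes and counters cell death, while AEN is a nuclease that degrades DNA in dying cells. TNFAIP8, induced by TNF through NF-kB, belongs to a family of lipid-binding proteins and opposes death-receptor signals.

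The 5 genes fell into 2 sets. BAK1, TRIAP1 and AEN were highest with Tau-WT and lowest with Tau-S199E, whereas CASP9 and TNFAIP8 were highest with Tau-K174Q. In the authors' deposited table BAK1, TRIAP1 and AEN are in cluster 1, which holds 535 genes, with log2 fold changes of 1.78, 1.18 and 0.94 and adjusted p-values of 0.0016, 0.0150 and 0.0324. CASP9 and TNFAIP8 are in cluster 3 of 353 genes, with log2 fold changes of -4.91 and -1.53 and adjusted p-values of 0.00196 and 0.0192 in the authors' deposited table. The absolute fold change of CASP9 ranks 13 of 1676 there, against 472 for BAK1, 653 for TNFAIP8, 1063 for TRIAP1 and 1419 for AEN. The contrast behind these fold changes is not named in the file. Their sign equals that of the interaction of the substitutions in 1676 of 1676 genes, an interaction in which limma called 5 of the 5 genes and 97.0% of the table, and that of Tau-S199E minus Tau-WT in 0 of 1676. For Tau-K174Q minus Tau-WT the sign was the same in 1 of 1676 genes, and for Tau-K174Q:S199E minus Tau-S199E in 1672. Every gene of the table may thus have been listed for a difference of this kind. The direction in which a gene moved in these comparisons or in Tau-S199E minus Tau-WT therefore goes with its being listed. Calls in all of them are no separate evidence.

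The genes lie on 5 chromosomes. On GRCh38 in GENCODE 29, BAK1 spans 33572547 to 33580293 of chromosome 6, CASP9 15490832 to 15526534 of chromosome 1, and TRIAP1 120443961 to 120446412 of chromosome 12, all on the minus strand. AEN spans 88621296 to 88632282 of chromosome 15 and TNFAIP8 119268692 to 119399688 of chromosome 5, on the plus strand. All are protein-coding. The 3′ mRNA kit reads near the end of a transcript, and at that end, within 500 bases, a gene on the opposite strand is annotated for BAK1 (the pseudogene GGNBP1), CASP9 (CELA2B) and TRIAP1 (AL021546.1). None of these 3 neighbours is in the table, and the strand setting of the counting is not given, so reads of such a pair cannot be told apart if strand was ignored. TRIAP1 and AEN each have 1 annotated end among their basic coding transcripts, CASP9 has 3 ends and TNFAIP8 has 6, and a value per gene does not show which end was read.

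The start regions of the genes are shown because AEN and TRIAP1 are textbook p53 targets. BAK1, TRIAP1 and AEN also varied together over the libraries, as is common among genes of this table. Whether they share a regulator was not tested. Each sequence runs 5′ to 3′ on the strand of the gene, from 250 bases before to 50 bases after a RefSeq start (GRCh38.p14), and all 5 genes had an entry. Capitals mark matches, on either strand, to the GC box GGGCGG, the CCAAT box CCAAT, the E box CACGTG or the p53 half-site consensus, and neighbouring matches may overlap. For CASP9 and TNFAIP8 the most upstream of 2 and of 3 listed starts is shown.
BAK1, chr6:33580227-33580526, minus strand: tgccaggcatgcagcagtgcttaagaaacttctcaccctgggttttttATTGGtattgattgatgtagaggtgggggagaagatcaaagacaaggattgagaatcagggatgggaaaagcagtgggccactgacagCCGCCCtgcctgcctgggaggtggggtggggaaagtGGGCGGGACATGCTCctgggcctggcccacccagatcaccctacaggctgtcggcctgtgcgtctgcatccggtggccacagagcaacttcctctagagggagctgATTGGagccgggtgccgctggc
TRIAP1, chr12:120446335-120446634, minus strand: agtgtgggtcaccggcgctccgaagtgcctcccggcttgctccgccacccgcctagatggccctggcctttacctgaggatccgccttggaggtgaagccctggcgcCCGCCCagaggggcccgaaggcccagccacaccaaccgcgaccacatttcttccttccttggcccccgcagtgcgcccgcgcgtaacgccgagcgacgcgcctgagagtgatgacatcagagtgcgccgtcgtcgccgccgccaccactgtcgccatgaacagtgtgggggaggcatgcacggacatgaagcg
AEN, chr15:88621090-88621389, plus strand: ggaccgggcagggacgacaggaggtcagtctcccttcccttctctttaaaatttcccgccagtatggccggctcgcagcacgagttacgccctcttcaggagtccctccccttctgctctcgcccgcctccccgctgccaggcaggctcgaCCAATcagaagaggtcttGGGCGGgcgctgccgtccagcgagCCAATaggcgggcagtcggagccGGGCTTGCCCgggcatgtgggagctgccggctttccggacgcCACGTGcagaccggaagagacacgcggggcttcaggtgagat
CASP9, chr1:15524741-15525040, minus strand: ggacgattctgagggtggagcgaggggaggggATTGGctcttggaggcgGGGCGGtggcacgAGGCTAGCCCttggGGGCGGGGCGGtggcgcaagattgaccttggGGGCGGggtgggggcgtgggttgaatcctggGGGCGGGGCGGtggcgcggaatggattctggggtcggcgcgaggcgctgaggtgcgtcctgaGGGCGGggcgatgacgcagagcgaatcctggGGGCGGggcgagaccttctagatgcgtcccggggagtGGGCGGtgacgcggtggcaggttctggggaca
TNFAIP8, chr5:119268509-119268808, plus strand: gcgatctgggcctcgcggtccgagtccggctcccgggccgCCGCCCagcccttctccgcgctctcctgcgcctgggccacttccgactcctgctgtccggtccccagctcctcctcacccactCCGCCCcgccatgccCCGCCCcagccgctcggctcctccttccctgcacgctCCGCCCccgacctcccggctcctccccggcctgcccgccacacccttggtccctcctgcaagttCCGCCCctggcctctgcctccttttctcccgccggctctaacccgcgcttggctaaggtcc

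The p53 half-site consensus matched once in BAK1 (GGACATGCTC, starting at position -73), once in AEN (GGGCTTGCCC, at -34) and once in the upstream start of CASP9 (AGGCTAGCCC, at -188), where -1 is the base before the start. It had 0 matches in the TRIAP1 sequence and in the 3 of TNFAIP8. Among 35116 start regions of this length, 6.63% hold such a half-site. The GC box, found in 45.0% of all start regions, occurred in each of the 5 sequences printed, with 9 matches in CASP9, 5 in TNFAIP8, 2 in BAK1 and 1 each in TRIAP1 and AEN. A CCAAT box, present in 34.6% of start regions, matched in BAK1 (2 times), AEN (2 times) and CASP9 (1 time). The E box, present in 7.26%, matched in AEN alone among the 8 start regions of the 5 genes, at position 9 after the start. Matches of letters describe the sequence and are not binding sites, and a start region is not the whole regulatory sequence of a gene.

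BAK1, the pore former, separated the constructs most clearly. Its values were 0.90, 1.26 and 1.36 with Tau-WT (libraries 1, 2 and 3) and -1.52, -0.46 and -1.86 with Tau-S199E (libraries 10, 11 and 12). With Tau-K174Q they were -0.09, -0.30 and 0.01 (libraries 4, 5 and 6), and with Tau-K174Q:S199E 0.79, -0.15 and 0.07 (libraries 16, 17 and 18). All Tau-WT libraries thus lay above all others, all Tau-S199E libraries below all others, and Tau-K174Q and Tau-K174Q:S199E overlapped between them. The means were 1.17 ± 0.24 for Tau-WT, 0.24 ± 0.49 for Tau-K174Q:S199E, -0.13 ± 0.16 for Tau-K174Q and -1.28 ± 0.73 for Tau-S199E (SD, n = 3 each). Differences between constructs held 84.4% of the variance of BAK1, against a median of 65.8% over the table, and 42 of the 1676 genes had a higher share.

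The p53 targets TRIAP1 and AEN followed the same order of constructs with wider spread. TRIAP1 had values of 1.88, 0.72 and 0.66 with Tau-WT and -1.23, -0.27 and -1.45 with Tau-S199E. Its values were -0.34, 0.08 and -0.28 with Tau-K174Q and 1.34, -0.26 and -0.86 with Tau-K174Q:S199E. The Tau-WT and Tau-S199E libraries of TRIAP1 were apart, while those of Tau-K174Q:S199E ran from the range of Tau-WT to that of Tau-S199E. AEN had values of 1.75, 0.24 and 0.50 with Tau-WT and -0.904, -0.997 and -1.61 with Tau-S199E. Its values were -0.29, -0.12 and 0.36 with Tau-K174Q and 1.63, 0.03 and -0.60 with Tau-K174Q:S199E. In AEN the 3 Tau-S199E libraries lay below the other 9, and Tau-WT, Tau-K174Q and Tau-K174Q:S199E overlapped. In both genes Tau-WT library 1 and Tau-K174Q:S199E library 16 were the highest of the 12. The means of TRIAP1 were 1.09 ± 0.69, 0.07 ± 1.14, -0.18 ± 0.23 and -0.98 ± 0.63, and those of AEN 0.83 ± 0.81, 0.35 ± 1.15, -0.01 ± 0.34 and -1.17 ± 0.38, in the order Tau-WT, Tau-K174Q:S199E, Tau-K174Q, Tau-S199E (SD, n = 3 each). In neither gene did Tau-WT and Tau-K174Q:S199E, the neighbours at the top of the order, differ beyond their spread.

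CASP9, the initiator caspase, was lowest with Tau-WT. Its values there were -1.36, -1.07 and -1.15, against 1.22, 0.66 and 0.67 with Tau-K174Q. With Tau-S199E they were 0.30, -0.11 and 1.18, and with Tau-K174Q:S199E -0.68, -0.91 and 1.24. The 3 Tau-WT libraries lay below the other 9, Tau-K174Q and Tau-S199E overlapped, and library 18 of Tau-K174Q:S199E was the highest of all while libraries 16 and 17 were near Tau-WT. From the top, its means were 0.85 ± 0.32 for Tau-K174Q, 0.46 ± 0.66 for Tau-S199E, -0.12 ± 1.18 for Tau-K174Q:S199E and -1.19 ± 0.15 for Tau-WT (SD, n = 3 each).

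TNFAIP8, the antagonist of death-receptor signals, was also low with Tau-WT, at -0.63, -1.01 and -0.63. With Tau-K174Q it reached 1.73 and 1.51 in libraries 4 and 5 but 0.15 in library 6. With Tau-S199E its values were 0.12, 0.79 and 0.23, and with Tau-K174Q:S199E -1.18, -1.31 and 0.23. Both single substitutions lay above Tau-WT in every library, and 2 of the 3 Tau-K174Q:S199E libraries lay below all Tau-WT libraries. From the top, its means were 1.13 ± 0.86 for Tau-K174Q, 0.38 ± 0.36 for Tau-S199E, -0.75 ± 0.86 for Tau-K174Q:S199E and -0.76 ± 0.22 for Tau-WT (SD, n = 3 each). Tau-WT and Tau-K174Q:S199E, the lowest in this order, differed by 0.01 and not beyond their spread.

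**Figure D1:**
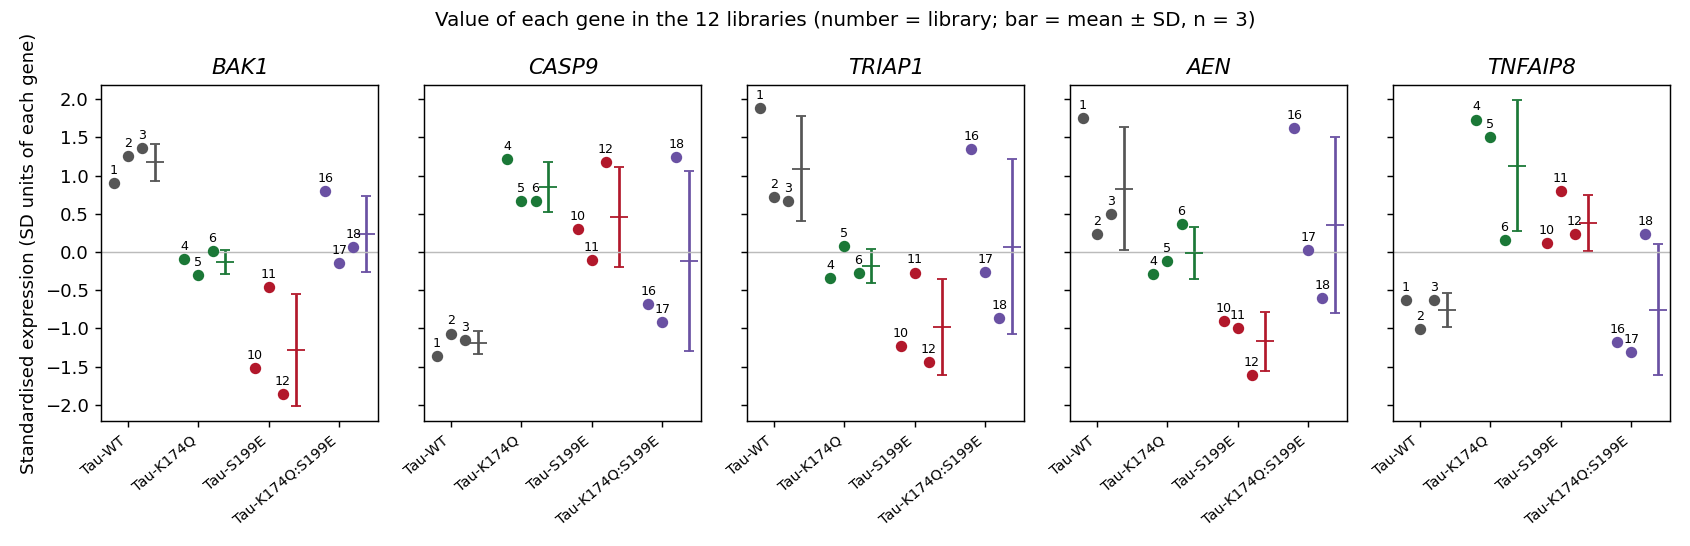
Standardised expression (SD units of each gene, y axis) of the 5 genes in each library, by construct (x axis), with library numbers beside the points and the mean ± SD (n = 3) as a bar. BAK1 libraries of Tau-WT lie between 0.90 and 1.36, above all others, and Tau-K174Q:S199E spreads widely in CASP9, TRIAP1 and AEN.

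Tau-S199E against Tau-WT addresses the phosphorylation mimic alone. BAK1 fell by 2.46 SD units (SE 0.38, limma adjusted p = 0.00968), TRIAP1 fell by 2.07 (SE 0.61, limma adjusted p = 0.0171) and AEN fell by 1.999 (SE 0.61, limma adjusted p = 0.0189). CASP9 rose by 1.65 (SE 0.57, limma adjusted p = 0.0272). TNFAIP8 had a difference of 1.14 (SE 0.52) that did not pass in limma (adjusted p = 0.0652), with a 95% interval from -0.07 to 2.35. Thus 4 of the 5 genes were called, beside 90.0% of all 1676 genes of the table (48.3% rose and 41.8% fell), so the count is near the share of any gene listed. At an unadjusted limma p under 0.05 there were the same 4 genes, beside 91.3% of the table, and with moderated variances 5 of 5, beside 98.4%. The libraries did not overlap in 5 of 5 genes, as in 94.2% of the table, and the two-sided exact permutation p was 0.1 for each, the smallest that 3 libraries against 3 can give. In SD units, which depend on the spread of each gene, the difference of BAK1 was the 6th lowest of 1676. TRIAP1 and AEN ranked 307 and 384 from the lowest. These ranks are not of the size of a change in expression. By absolute deposited fold change BAK1 ranked 472, but the contrast of that fold change is not named, so it gives no rank for Tau-S199E against Tau-WT.

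How firm these calls are differed between the genes. BAK1 passed in limma with any 1 of the 12 libraries left out. The call of CASP9 was lost without library 1, 2, 3 or 12 (limma adjusted p = 0.0671, 0.0570, 0.0569 and 0.0919), that of TRIAP1 without library 1 or 12 (limma adjusted p = 0.0502 and 0.0586) and that of AEN without library 1 or 12 (limma adjusted p = 0.0545 and 0.0626), with differences of 1.29 to 1.71, -1.84 to -1.67 and -1.78 to -1.54. TNFAIP8 passed without library 6 or 18 (limma adjusted p = 0.0394 and 0.0327). The share of the table called was 69.9%, 63.0%, 71.9% and 49.7% without library 1, 2, 3 or 12. Without library 6 or 18 it was 84.5% and 93.8%. Calls were thus lost in fits in which fewer genes of the whole table passed than the 90.0% of the main fit. Whether the 3 libraries of a construct came from separate cultures is not stated, so the tests see no more than library spread, possibly technical. In bulk RNA fewer cells of a kind and less RNA per cell cannot be told apart.

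Tau-K174Q against Tau-WT addresses the acetylation mimic alone. The largest differences were those of CASP9 (2.04, SE 0.57) and TNFAIP8 (1.89, SE 0.52), followed by BAK1 (-1.30, SE 0.38) and TRIAP1 (-1.27, SE 0.61), and AEN had -0.84 (SE 0.61). None of the 5 passed in limma, with adjusted p = 0.0660 for CASP9, TNFAIP8 and BAK1, 0.111 for TRIAP1 and 0.227 for AEN, and 0 of the 1676 genes of the table (0%) were called. At an unadjusted limma p under 0.05 there were 3 of the 5 genes, beside 51.9% of the table, and with moderated variances limma called 4 of the 5, AEN being the exception, beside 59.9% of the table. Libraries did not overlap in 4 of 5 genes, again without AEN, beside 80.7% of the table (two-sided exact permutation p = 0.1 for the 4 and 0.2 for AEN). In SD units of each gene, CASP9 stood 45th from the highest of 1676 differences and TNFAIP8 111th. The sign of this contrast equals that of the deposited fold change in 1 of 1676 genes. Directions and calls of this comparison are therefore no separate evidence. Without library 18, which is of neither construct compared here, BAK1, CASP9 and TNFAIP8 passed (limma adjusted p = 0.0409, 0.0135 and 0.0216), beside 40.3% of the table. The 3 differences were unchanged. The SE became smaller in CASP9 (0.33) and TNFAIP8 (0.42) but larger in BAK1 (0.40, against 0.38). The lower adjusted p of BAK1 thus came from the adjustment over all genes and not from its own spread.

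**Figure D2:**
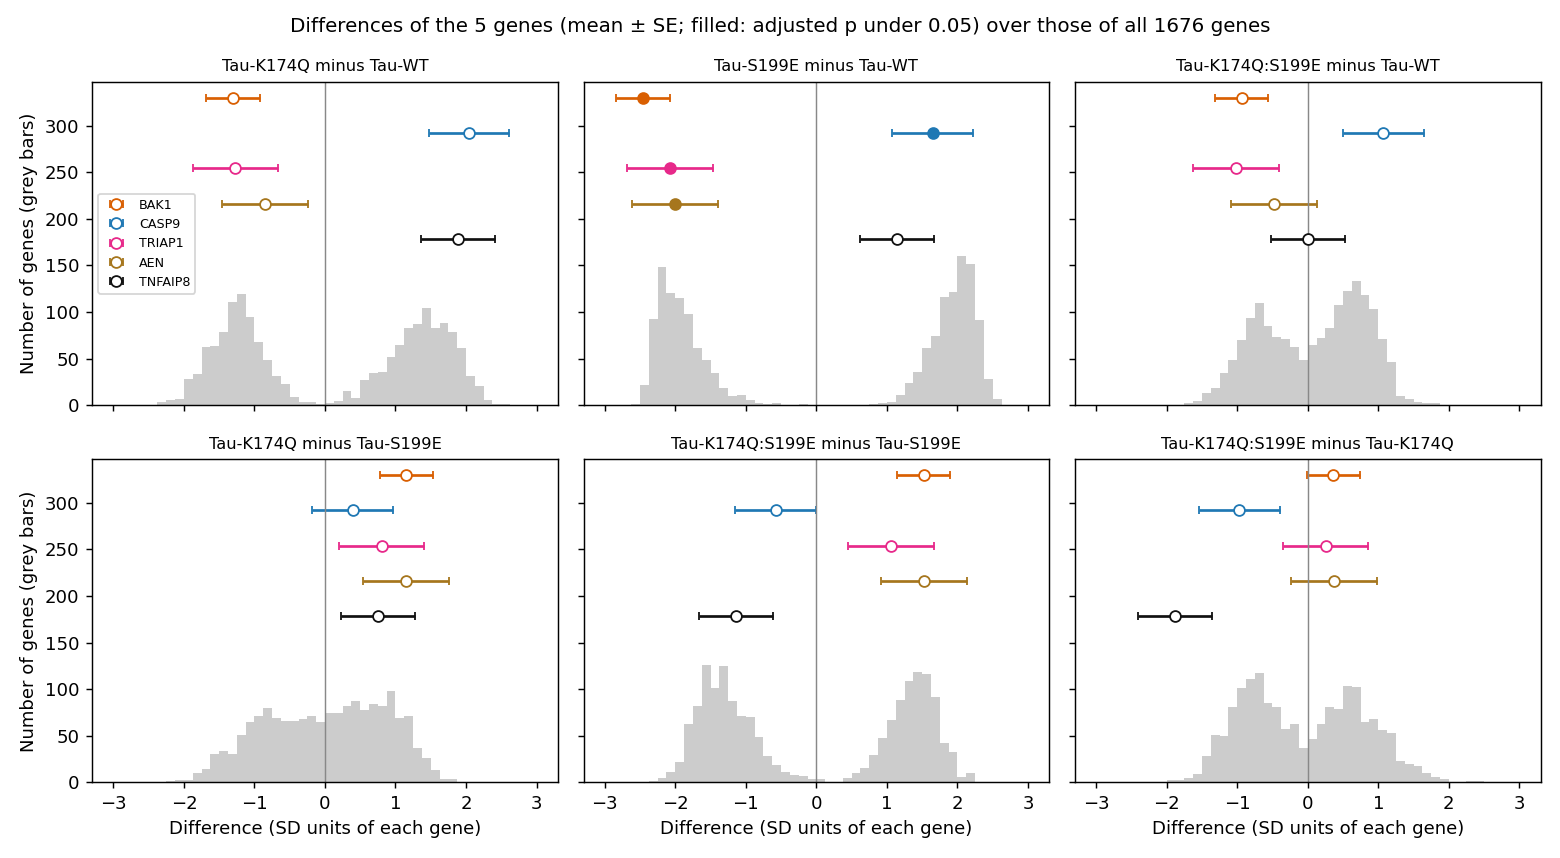
Differences between constructs (x axis, SD units of each gene) for the 5 genes as mean ± SE, filled where the limma adjusted p is under 0.05, over grey bars that count all 1676 genes (y axis, for the bars only). The filled points are BAK1, CASP9, TRIAP1 and AEN in Tau-S199E minus Tau-WT, and TNFAIP8 lies at -1.88 in Tau-K174Q:S199E minus Tau-K174Q.

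Tau-K174Q against Tau-S199E sets the single substitutions side by side. All 5 genes had higher means with Tau-K174Q, by 1.15 in BAK1 (SE 0.38) and 1.16 in AEN (SE 0.61), 0.80 in TRIAP1, 0.75 in TNFAIP8 and 0.39 in CASP9. The median difference over all genes of the table was 0.09, and the sign equals that of the deposited fold change in 1416 of 1676 genes. The shared direction is a description. None of the 5 passed in limma (adjusted p from 0.260 to 0.709, 1 of the 5 at an unadjusted p under 0.05 beside 16.1% of the table), and 1 gene of 1676 (0.0597%) was called. The libraries of BAK1 and AEN did not overlap (two-sided exact permutation p = 0.1), beside 36.2% of the table without overlap. The 95% intervals ran from 0.28 to 2.03 in BAK1, from -0.25 to 2.56 in AEN and from -0.92 to 1.71 in CASP9, so a difference in CASP9 was not resolved in either direction.

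Tau-K174Q:S199E minus Tau-S199E had the sign of the deposited fold change, opposite to that of Tau-S199E minus Tau-WT, in all 5 genes, as in 1672 of the 1676 genes of the table, and none of the 5 was called. Against Tau-S199E, Tau-K174Q:S199E was higher by 1.52 in BAK1 (SE 0.38) and 1.52 in AEN (SE 0.61) and by 1.05 in TRIAP1, and lower in TNFAIP8 (-1.13) and CASP9 (-0.58). The limma adjusted p ranged from 0.0644 to 0.355, 2 of the 1676 genes (0.119%) were called, and 2 of the 5 had an unadjusted p under 0.05 beside 56.4% of the table. The libraries did not overlap in BAK1 and AEN, beside 43.4% of the table (two-sided exact permutation p = 0.1). With moderated variances limma called BAK1 and AEN (adjusted p = 0.0202 and 0.0200), beside 68.8% of the table. Without library 18, 4 of the 5 genes passed in limma (BAK1 1.60, AEN 1.999, CASP9 -1.25 and TNFAIP8 -1.63), beside 78.5% of the table.

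Against Tau-K174Q, the TNFAIP8 mean with Tau-K174Q:S199E was lower by 1.88 (difference -1.88, SE 0.52, 95% interval -3.09 to -0.68), and only 1 of the 1676 genes had a lower value in this contrast. It did not pass in limma (adjusted p = 0.456), its libraries overlapped (two-sided exact permutation p = 0.2), and 0 of 1676 genes (0%) were called, while 8.23% had an unadjusted p under 0.05. The sign of this contrast equals that of the deposited fold change in 1613 of 1676 genes. Directions and ranks of this comparison, which are in SD units of each gene, are therefore no separate evidence. CASP9 had a difference of -0.97 (SE 0.57), and BAK1, AEN and TRIAP1 had 0.37, 0.37 and 0.25, each smaller than its SE. Without library 18 the differences of TNFAIP8 and CASP9 were -2.38 and -1.65 and passed in limma (adjusted p = 0.0403 and 0.0435), beside 8.47% of the table. The signs of TRIAP1 and AEN turned without library 16, to -0.38 and -0.27.

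Tau-K174Q:S199E against Tau-WT left 0 of the 5 genes and 0% of the table called in limma, with 1 of the 5 (BAK1) at an unadjusted p under 0.05 beside 7.58% of the table. BAK1 was lower by 0.94 on average (difference -0.94, SE 0.38, limma adjusted p = 0.533) and CASP9 higher by 1.07 (SE 0.57, limma adjusted p = 0.533), and in these 2 genes the libraries did not overlap (two-sided exact permutation p = 0.1), as in 11.6% of the table. TRIAP1 had -1.02 (SE 0.61), AEN -0.48 (95% interval -1.88 to 0.93) and TNFAIP8 0.01 (95% interval -1.20 to 1.21). These comparisons share libraries with one another, the Tau-WT libraries in particular, and their values are not independent.

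The libraries of a construct did not agree equally well in the table at large. The first principal component held 74.9% of the variance of the table, and on it the Tau-S199E libraries scored -0.72, -0.60 and, in library 12, -1.61, while the Tau-K174Q:S199E libraries scored 0.98, 0.56 and, in library 18, -0.46. Tau-WT libraries scored 0.87 to 1.11 and Tau-K174Q libraries -0.55 to -0.13. As a description over the 12 libraries, which fall into 4 constructs and share this component, Pearson's r with it was 0.90 for BAK1, 0.86 for TRIAP1, 0.86 for AEN, -0.86 for CASP9 and -0.70 for TNFAIP8. TNFAIP8 was thus the least bound to the common axis: library 12, the most extreme on it, had a value of 0.23 in TNFAIP8 but the lowest value of all 12 in BAK1, TRIAP1 and AEN. None of the 18 adrenergic neuroblastoma markers looked for was in the table and 3 of 11 mesenchymal ones were (CD44, SNAI2 and S100A6). With standardised values, neither shows the state of the cells.

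**Figure D3:**
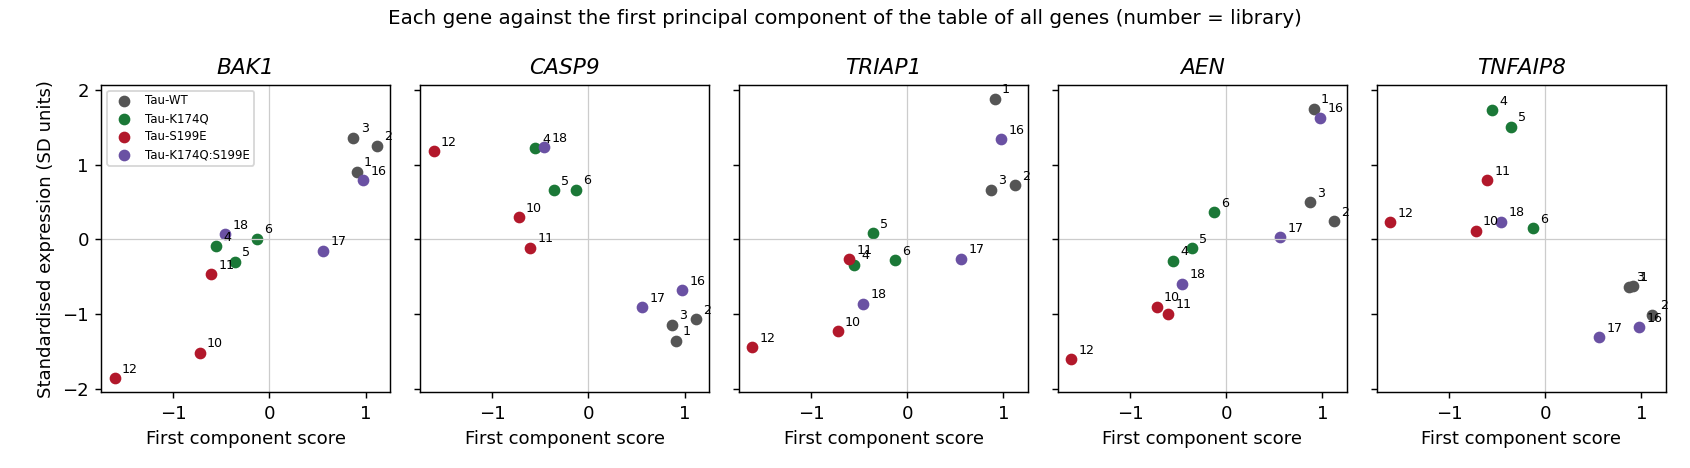
Standardised expression of each of the 5 genes (y axis, SD units) against the score of each library on the first principal component of the table (x axis, SD units per gene), coloured by construct and numbered by library. BAK1, TRIAP1 and AEN rise along the component and CASP9 falls, while TNFAIP8 at library 12 (score -1.61) is only 0.23.

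Likeness of profiles was described by Pearson's r over the 12 libraries. TRIAP1 and AEN had the highest r of the 10 pairs, 0.93, and it was 0.89 after the mean of each construct was removed and 0.89 without library 1. BAK1 had an r of 0.84 with TRIAP1 and 0.79 with AEN, and 0.55 and 0.37 within constructs. CASP9 and TNFAIP8 had an r of 0.76, and 0.56 within constructs. Such values are common in this table, where the median absolute r of a gene with all others was 0.80 for BAK1 and 0.62 for TNFAIP8: 74 genes had a profile closer to TRIAP1 than AEN had, and 59 were closer to AEN than TRIAP1 was. The nearest genes were PSMD4, a proteasome subunit, NDUFAF8 and the helicase RECQL4 for TRIAP1 (r = 0.98 each), PSMB7, another proteasome subunit, the endosomal GTPase RAB5A and the ribosomal RPS3A for AEN (r = 0.98, 0.97 and 0.97), and WDR18, TEX261 and ANKRD52 for BAK1 (r = 0.97, 0.96 and 0.96). CASP9 was near to the splicing regulator HNRNPF and the secreted factor MANF (r = 0.98 each). For TNFAIP8 the nearest were SEL1L3, C8orf88 and ZNF655 (r = 0.90, 0.90 and 0.89), and no gene passed 0.9, whereas 115 to 140 genes did so for each of the other 4. Against the mean profile of its own cluster, CASP9 ranked 29 of 353 genes (r = 0.96) and TNFAIP8 310 of 353 (r = 0.82).

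Of 139 genes on 6 lists of the apoptosis and p53 pathways, 26 were in the table, 21 of them besides the 5 genes above. With Tau-S199E against Tau-WT all 21 passed in limma, 10 higher and 11 lower, beside 90.0% of the table. In the other 5 comparisons of constructs 0 of the 21 passed, beside 0% to 0.119% of the table. Both counts are near the share of any gene listed. In the BCL2 family, BAK1 and the death promoter BAD fell (BAD by 1.88, SE 0.64) while MCL1, which restrains BAK1, rose (2.11, SE 0.50). The pore BAK1 and its restraint MCL1 therefore moved in opposite directions. The median difference of the 3 genes, -1.88, is the value of BAD itself. Over all genes of the table the median in this contrast was 1.41. Medians of this and the next lists rest on few genes that lie on both sides of 0, and are not the size of a shift. Among all 1676 genes 48.3% were called higher and 41.8% lower, so 2 falls and 1 rise do not show a shift of the family.

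Of the list of caspases, the apoptosome and inhibitors of apoptosis, the table held 6 of 25, and under Tau-S199E 4 rose and 2 fell (median 1.71), beside 48.3% and 41.8% of the table. Besides CASP9 these were DFFB, the caspase-activated DNase (2.02, SE 0.62), the flavoprotein AIFM1 (1.78) and survivin, BIRC5 (1.77), which rose, and the mitochondrial nuclease ENDOG, which fell (-1.90, SE 0.61), as did AEN, the other member of this list. The nucleases of cell death thus split, DFFB higher and ENDOG and AEN lower. In the authors' deposited table the log2 fold change of DFFB, -4.29, was nearest to that of CASP9 among the 26 genes.

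Of the death receptor list 3 of 20 genes were in the table, with 0 called higher and 2 lower with Tau-S199E (median -1.81), beside 48.3% and 41.8% of the table. TNFRSF10A, the TRAIL receptor, fell by 2.38 (SE 0.41) and TNFAIP8L1, a family member of TNFAIP8, fell by 1.81 (SE 0.61), while the TNFAIP8 mean was higher. From the top, means of TNFAIP8L1 were 0.73 for Tau-WT, 0.64 for Tau-K174Q:S199E, -0.28 for Tau-K174Q and -1.09 for Tau-S199E, opposite in sign to those of TNFAIP8 in each construct.

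Of the list of regulators in the p53 response 4 of 24 genes were in the table, and 2 rose and 2 fell with Tau-S199E (median -0.14). The checkpoint kinase CHEK2 rose by 2.02 (SE 0.55) and the ribosomal protein RPL23, which binds MDM2, by 1.72, while the acetyltransferase CREBBP fell by 2.10 (SE 0.55) and the bromodomain protein BRD7 fell too (-1.99). Of the p53 targets 9 of 44 were in the table, 3 rose and 6 fell with Tau-S199E (median -1.96, beside 1.41 over all genes of the table), and with 90.0% of the table called, 48.3% higher and 41.8% lower, being called is no trait of the list. The falls were those of TRIAP1, AEN, SFN (-2.20, SE 0.54), which encodes 14-3-3 sigma, ALDH4A1 (-2.12), RPS27L (-1.96) and the stress sensor SESN2 (-1.52), and the rises those of FBXO22 (2.24, SE 0.52), PERP, a protein of cell junctions (2.11), and cyclin G1, CCNG1 (1.91). SESN2 was the target with the highest mean under Tau-K174Q:S199E, 1.01 ± 0.85, above its Tau-WT mean of 0.42 ± 0.34. Of the list of mitochondrial outer membrane and lipid transfer partners 3 of 14 were in the table, and VDAC2, a membrane channel that binds BAK1, rose by 2.01 while TRIAP1 and the fission GTPase DNM1L (-2.01) fell. The median, -2.01, is the value of DNM1L itself.

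**Figure D4:**
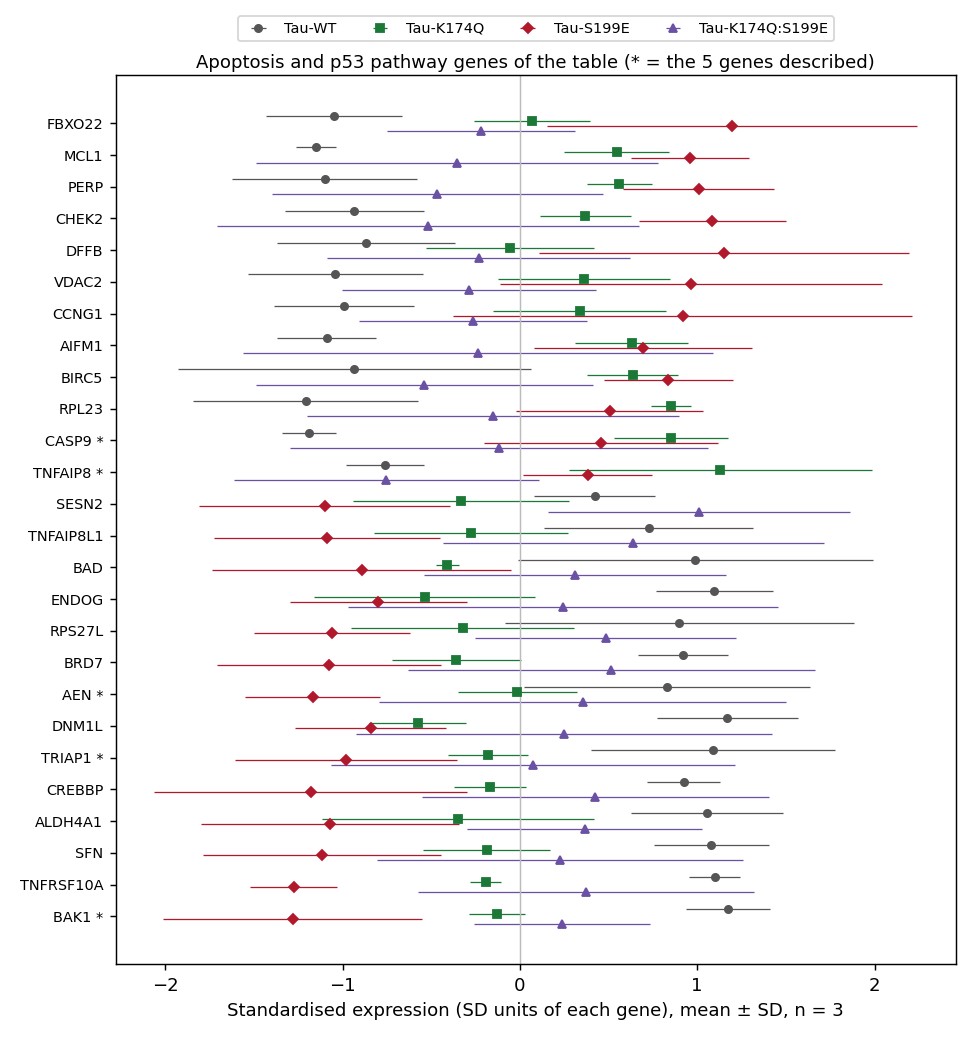
Mean ± SD (n = 3) of standardised expression (x axis, SD units of each gene) by construct for the 26 listed genes of the table (y axis, ordered by Tau-S199E minus Tau-WT), with a star at the 5 genes described. FBXO22 is at the top and BAK1 at the bottom. TNFAIP8 has the highest Tau-K174Q mean of the 26 genes, 1.13, above its Tau-S199E mean of 0.38. CASP9, RPL23 and all genes that were lower with Tau-S199E than with Tau-WT have this order too.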

How the data were processed

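Per the labels' protocols, each library was made from 400 ng of RNA with a kit that reads 3′ ends. GRCh38, STAR 2.5.3a, RSEM 1.2.31 and DESeq2 are listed in the submitters' processing notes without saying what each did. How genes were filtered, transformed and clustered, and whether strand was used, is not given. The 12 library columns are a score that the authors standardised by gene, as the values show (SD 1 in each row). The deposited log2 fold changes and the deposited adjusted p-values are of a contrast that the file headers do not name. Depth is therefore unknown, and no count model, pseudocount or filter on low values applies.

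Column headings name the construct and number of each library, without the replicate number of the labels, and end in a letter with a digit. For library 1 of Tau-WT this ending is E9, while those of the other libraries run in order from B3 to B5. Within a construct the library numbers are consecutive, as in 1, 2 and 3 for Tau-WT. Differences between constructs therefore cannot be told apart from library order. Whether the ending of library 1 goes with its values was not tested. The 12 libraries entered 1 limma fit (limma 3.58.1, R 4.3.3) of 4 construct means, and each contrast was tested with the ordinary residual variance (8 degrees of freedom), two-sided, with Benjamini-Hochberg adjustment over all 1676 genes and a threshold of 0.05. The fit was also run on simulated data of independent genes, some of them shifted in Tau-K174Q. That setting has neither the common component nor the possible selection of this table, so it checks only that the fit runs as meant. Exact permutation tests compared 3 libraries with 3. Alternatives were moderated variances, the libraries of 2 constructs alone, ranks, each library left out, and libraries 12 and 18 left out together, the last chosen after the data were seen. The interaction was added in the same way. The named genes are the 5 genes, the 3 with symbols most correlated with each, and the listed pathway genes. Some genes that this rule names are not reported here. The genes and lists were chosen with earlier results of these data known.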

Additional observations from a re-analysis of the deposited data

Results flagged for a closer look

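The effect of K174Q in cells with S199E differed from its effect without S199E in all 5 genes, by the interaction term of the limma fit. The difference of these effects was 2.82 SD units in BAK1 (SE 0.53, limma adjusted p = 0.0182), 2.37 in AEN (SE 0.86, limma adjusted p = 0.0293) and 2.32 in TRIAP1 (SE 0.86, limma adjusted p = 0.0308). It was -3.02 in TNFAIP8 (SE 0.74, limma adjusted p = 0.0182) and -2.62 in CASP9 (SE 0.81, limma adjusted p = 0.0204). In this fit 97.0% of the 1676 genes passed, and the table may have been selected on this very contrast, so these calls are no separate evidence. TRIAP1 and AEN no longer passed without Tau-WT library 1, Tau-S199E library 12 or Tau-K174Q library 4, when 3 of the 5 genes were called beside 84.7%, 77.4% and 76.0% of the table. TRIAP1 also did not pass in limma without Tau-S199E library 10 (adjusted p = 0.0598) or Tau-K174Q library 6 (adjusted p = 0.0557), nor AEN without Tau-K174Q library 5 (adjusted p = 0.0557), when 4 of the 5 genes were called beside 89.8%, 89.7% and 83.4% of the table. TNFAIP8 had the 79th lowest of the 1676 values.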

How the results depend on the processing

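No paired analysis was possible because the columns carry no replicate numbers of the labels, so the replicate block was not run. With Tau-S199E against Tau-WT, 4 of the 5 genes and 90.0% of the table were called, and 1 to 5 genes and 49.7% to 93.8% of the table with 1 library left out, the lowest count being BAK1 alone without library 1 or 12. With Tau-K174Q against Tau-WT, 0 genes were called, against 4 with moderated variances (59.9% of the table), 3 with the libraries of the 2 constructs alone (48.9%), 3 without libraries 12 and 18 (58.5%), and 0 to 3 with 1 library left out (0% to 40.3%). With Tau-K174Q:S199E against Tau-S199E, 0 were called, against 2 with moderated variances (68.8% of the table), BAK1 alone, 1 gene, with ranks (24.5%), 2 without libraries 12 and 18 (43.6%), and 0 to 4 with 1 library left out (0% to 78.5%). With Tau-K174Q:S199E against Tau-K174Q, 0 were called, against 2 without libraries 12 and 18 (26.9% of the table) and 0 to 2 with 1 library left out (0% to 8.47%). In the other 2 comparisons of constructs 0 were called in every fit, beside 0% to 0.179% of the table, so this is near the share of any gene listed. The cause of these changes was not tested. Signs turned only in differences that had not passed. Tau-K174Q:S199E against Tau-WT ranged from -1.11 to 9.79e-05 in AEN with 1 library left out, the upper end without library 18, with library 12 kept or not. In TNFAIP8 it ranged from -0.49 (without library 18, with library 12 kept or not) to 0.29 and was -0.12 without library 2. Tau-K174Q:S199E against Tau-K174Q ranged from -0.38 to 0.72 in TRIAP1 and from -0.27 to 0.84 in AEN, the lower ends without library 16.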

Other observations

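The deposited annotation gives each gene its Gene Ontology terms. The term for the apoptotic process is carried by 83 of the 1676 genes, among them all 5 genes described here, and of the 83 genes 45 rose and 31 fell with Tau-S199E against Tau-WT in limma. Of all 1676 genes, 90.0% were called there, 48.3% higher and 41.8% lower, so the counts of this and the next terms are given as a description and show nothing particular to a term. BAK1 and CASP9 share the term for activation of caspases in apoptosis, carried by 15 genes, of which 6 rose and 8 fell (90.0% of the table was called), and they are the only 2 genes of the table with the term for caspase activation by cytochrome c. CASP9 rose and BAK1 fell. TRIAP1 and TNFAIP8 share the term for negative regulation of caspase activity, carried by 8 genes, of which 3 rose and 4 fell (90.0% of the table was called). TRIAP1 is one of the falls, and TNFAIP8 is the gene that was not called. These terms were chosen after the values were seen.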
